A study of Mus musculus with 9 samples.

Results

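Myeloid lectin and immunoglobulin-like receptors are the surface proteins with which microglia and macrophages read sugars, lipids, MHC molecules and the debris of dying cells. They were taken as every row of the authors' 2 tables of changed genes whose symbol begins with Clec and a digit, Lilr, Pira or Pirb, Pilr, Siglec, Cd300, Trem, Sirp, Klr, Mrc and a digit, Gp49a, Ms4a or Slamf, leaving out Trem2. This gave 69 rows with 68 symbols among 4277 genes listed in either table. All 69 stood in the table of stroke against sham, and 32 of them also in the table of mmpp against stroke. Thalamus of wild-type (WT) C57/BL mice was sequenced on day 7, with 3 samples each of sham, stroke and mmpp. Stroke was photothrombotic, which means that a light-activated dye clots small vessels, and a melanin nanozyme (a particle that acts like an enzyme) was injected. The labels leave mmpp unexplained and do not say which groups were injected, how old the mice were, or whether animals were pooled. All values are the authors' group means in TPM, a share of all transcripts scaled by length, so no spread between samples and no sequencing depth can be given. In bulk tissue, fewer cells of a type and less RNA per cell cannot be told apart.

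Many of these receptors come as pairs with nearly the same outer part and opposite signals. Inhibitory members carry a tyrosine motif (ITIM) in their tail that recruits phosphatases. Activating members mostly couple to adaptors such as DAP12 (gene Tyrobp), DAP10 (Hcst) or the Fc receptor gamma chain (Fcer1g). Many activating members, though not all, signal through the kinase Syk. In brain, microglia and border macrophages are the main carriers of such receptors, and natural killer cells carry most of the Klr group. By these textbook roles 25 members were called activating, 15 rows inhibitory and 29 neither. The last class holds the Ms4a membrane proteins, the self-binding Slamf receptors, the mannose receptor family and several lectins whose signal is absent or unsettled. Some members are not myeloid at all, among them the endothelial Clec14a and the secreted growth factor Clec11a.

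After stroke the listed receptors were higher almost throughout, and listed activating and inhibitory members were higher together. The authors' deposited table listed 67 of 69 rows higher and 2 lower, beside 11.5% and 7.59% of the 20804 genes adjusted. With an authors' q-value (an adjusted p) under 0.05 and a difference of at least 2-fold, 58 rose and 0 fell. Of all genes adjusted, 9.67% rose and 3.37% fell. The shares of 11.5% and 7.59% count only listed genes with a q under 1, whereas the 67 rows include Klrb1f, which had none. Among the 4071 genes listed in this comparison, 2469 were listed higher and 49.4% rose. Standing in a table already requires a p under 0.05 and a 2-fold difference, so these shares among listed rows are partly set by how members were found. A count free of this limit starts from gene names, though the members were chosen with earlier results of these data known. RefSeq (GRCm38.p6) holds 127 protein-coding names that match the rule, and 57 of them, or 44.9%, rose in the authors' deposited table, beside 8.02% of all 21900 protein-coding names. By role, 21 of 38 activating names (55.3%), 13 of 26 inhibitory names and 23 of 63 other names (36.5%) rose in the authors' deposited table. For the 59 remaining names the tables give no value, and nothing is said of them here.

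Among members with both means above the lowest listed value of 0.0001 TPM, taken here as not detected and called the floor, the median log2 fold change in the authors' deposited table was 4.68 for 21 activating, 3.99 for 15 inhibitory and 3.63 for 25 other members. Over all listed genes above the floor it was 1.27, and over those listed higher 2.18. The size depends on low means: with 1 TPM added to each mean the activating and inhibitory medians were 1.71 and 1.75, and the order of these roles turned. Summed over members, the authors' deposited table gave 16.2 TPM in sham and 343 in stroke for activating members, 75.7 and 461 for inhibitory members, and 23.3 and 303 for the others. In sham, only Sirpa and Cd300c2 had a mean of 10 TPM or more in the authors' deposited table. After stroke 18 rows did, 4 activating, 8 inhibitory and 6 other. In sham 26 of the 69 means lay under 0.1 TPM, and the size of a fold against so low a mean is uncertain.

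**Figure D1:**
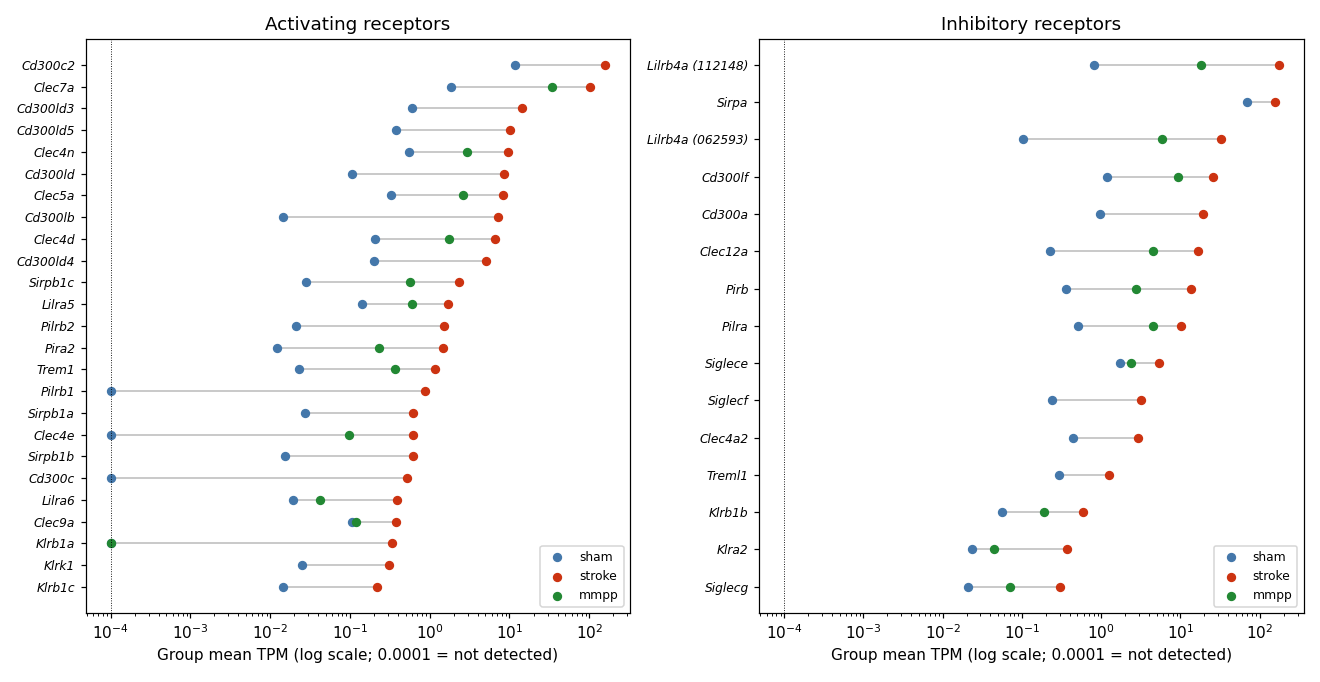
Group mean TPM (log axis) of the 25 activating and 15 inhibitory rows in sham (blue), stroke (red) and, where listed, mmpp (green), from the authors' deposited tables, ordered by the stroke mean. Every stroke mean lies to the right of the sham mean, each mmpp mean lies left of its stroke mean, and points on the dotted line at 0.0001 were not detected.

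Among activating members the C-type lectins were the sensors of fungal sugars and dead cells. Clec7a, the beta-glucan receptor Dectin-1, was at 1.84 TPM in sham and rose 54.9-fold to 101 TPM in stroke (q = 2.29e-11, authors' deposited table). Clec4n, Dectin-2, which binds mannans, went from 0.544 to 9.71 TPM (q = 2.24e-09, authors' deposited table). Clec5a, a DAP12-coupled receptor known as a sensor of dengue virus, had 0.324 and 8.20 TPM (q = 1.79e-07, authors' deposited table). After stroke the Dectin-1 mean was thus far above those of Clec4n and Clec5a. Clec4d went from 0.208 to 6.61 TPM (q = 2.96e-10, authors' deposited table). Its partner Clec4e, or Mincle, a receptor for mycobacterial glycolipid and for a nuclear protein of dying cells, was at the floor in sham and at 0.621 TPM in stroke (q = 1.64e-05, authors' deposited table). Clec9a, which binds actin filaments of dead cells and marks a class of dendritic cells, was at 0.106 and 0.377 TPM and narrowly missed the call (q = 0.0512, authors' deposited table).

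The listed Cd300 receptors, which bind lipids exposed on cell surfaces, were all higher. The authors' deposited table listed 9 of 12 RefSeq Cd300 names, and all 9 rose, beside 8.02% of all protein-coding names. Near copies among them, named below, are not separate measurements. Cd300c2 was the highest activating member, with a sham mean of 11.6 and a stroke mean of 159 TPM, a 13.7-fold rise (q = 6.59e-13, authors' deposited table). Cd300lb, which couples to DAP12, went from 0.0147 to 7.17 TPM (q = 1.90e-12) in the authors' deposited table, a fold of 489 whose size rests on a sham mean near 0. The means of Cd300ld were 0.105 and 8.65 TPM (q = 1.46e-13, authors' deposited table). Cd300ld3, Cd300ld4 and Cd300ld5 rose to 14.5, 5.14 and 10.1 TPM, or 24.0-fold, 25.6-fold and 27.1-fold (authors' deposited table). These last 3 genes are near copies. In GENCODE M21 transcripts, 82.1% and 93.8% of the 50-base stretches of Cd300ld3 and Cd300ld4, and all of those of Cd300ld5, also lie in another gene, so their values cannot be told apart. Cd300c was at the floor in sham and at 0.526 TPM in stroke (q = 0.0231, authors' deposited table).

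Paired immunoglobulin-like receptors rose on both sides of the pair. The inhibitory Pirb, which binds MHC class I and is also known from neurons, went from 0.361 to 13.5 TPM (37.4-fold, q = 1.77e-16, authors' deposited table). Its activating relative Pira2 had means of 0.0122 TPM in sham and 1.46 TPM in stroke (q = 3.03e-06, authors' deposited table). A further activating relative, Lilra6, had 0.0193 and 0.388 TPM (q = 0.00875, authors' deposited table). The inhibitory member of the pair was thus at the higher level in each group. Of their 50-base stretches, 34.0% in Pirb, 93.0% in Pira2 and 31.3% in Lilra6 are shared with another gene, and the split of reads between them is uncertain. Promoters were foreseen for the 3 members of smallest q in mmpp against stroke, Lilrb4a, Lilr4b and Pirb. Lilrb4a had no entry in the promoter set used, so none is shown for it. The printed bases run from 250 before to 50 after the start of each gene in RefSeq (GRCm38.p6). Capitals mark GAGGAA or its reverse complement TTCCTC, the core of the site bound by PU.1, a transcription factor of myeloid cells. Pira2 and Lilra6 were added after their values were seen, because they start from DNA nearly identical to that of Pirb. The Lilr4b window says nothing of the promoter of Lilrb4a.
Pirb, chr7:3720333-3720632, minus strand: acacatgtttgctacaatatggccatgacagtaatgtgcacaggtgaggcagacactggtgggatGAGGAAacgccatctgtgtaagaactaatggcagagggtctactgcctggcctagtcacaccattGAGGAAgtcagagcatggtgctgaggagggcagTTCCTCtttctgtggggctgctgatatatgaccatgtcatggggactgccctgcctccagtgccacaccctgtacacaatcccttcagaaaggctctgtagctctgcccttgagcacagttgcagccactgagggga
Pira2, chr7:3845002-3845301, minus strand: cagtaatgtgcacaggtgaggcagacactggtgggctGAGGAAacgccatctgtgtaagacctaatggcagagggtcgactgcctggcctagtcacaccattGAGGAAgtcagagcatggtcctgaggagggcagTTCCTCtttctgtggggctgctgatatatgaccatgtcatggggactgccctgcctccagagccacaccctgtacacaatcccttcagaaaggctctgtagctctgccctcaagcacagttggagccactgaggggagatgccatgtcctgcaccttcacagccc
Lilra6, chr7:3915452-3915751, minus strand: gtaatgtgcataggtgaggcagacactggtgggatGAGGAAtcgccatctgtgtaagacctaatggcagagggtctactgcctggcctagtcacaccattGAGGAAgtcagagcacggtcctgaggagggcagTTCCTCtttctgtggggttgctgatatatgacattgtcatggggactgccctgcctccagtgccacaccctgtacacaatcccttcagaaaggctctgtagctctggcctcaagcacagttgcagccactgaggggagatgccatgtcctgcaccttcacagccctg
Lilr4b, chr10:51480362-51480661, plus strand: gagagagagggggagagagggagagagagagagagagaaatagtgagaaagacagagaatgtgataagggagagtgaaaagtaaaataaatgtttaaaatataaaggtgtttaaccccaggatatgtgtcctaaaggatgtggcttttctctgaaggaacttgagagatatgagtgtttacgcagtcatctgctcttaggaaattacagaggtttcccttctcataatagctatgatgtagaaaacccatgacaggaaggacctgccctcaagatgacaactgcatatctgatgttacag
Local alignment found 97.1% identity over 272 bases between Pirb and Pira2, 95.9% over 270 bases between Pirb and Lilra6, and 96.3% over 298 bases between Pira2 and Lilra6. Each of these 3 windows holds 3 matches to the motif, 2 as written and 1 on the opposite strand. The Lilr4b window holds none. Of 58 listed members with a promoter in the RefSeq table, 36 (62.1%) had at least 1 match on either strand, beside 28.3% of all 27025 promoters of the same length. These 27025 promoters outnumber the 21900 protein-coding names, so not all belong to protein-coding genes. Near-identical promoters, such as those of Pirb, Pira2 and Lilra6, were counted as separate members. A match says only that these letters are present.

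The remaining activating members were low. Trem1, which amplifies inflammatory signals in phagocytes, went from 0.0227 to 1.16 TPM (q = 2.81e-07, authors' deposited table). The related Sirpb1a, Sirpb1b and Sirpb1c reached 0.625, 0.609 and 2.35 TPM in stroke from sham means under 0.1 TPM, and all 3 rose (q = 0.0373, 0.00491 and 1.38e-05, authors' deposited table), though 40.4% to 58.0% of their 50-base stretches are shared. Pilrb1 was at the floor in sham and at 0.872 TPM in stroke (q = 0.000522), and Pilrb2 went from 0.0212 to 1.51 TPM (q = 0.000643, authors' deposited table). Of the 50-base stretches of Pilrb1 and Pilrb2, 30.1% and 29.2% are shared with another gene. Lilra5, an immunoglobulin-like receptor, rose 11.9-fold, from 0.141 to 1.68 TPM (q = 2.35e-05, authors' deposited table). Activating receptors of natural killer cells did not pass. Klrk1, or NKG2D, was at 0.0253 and 0.312 TPM (q = 0.0733), and Klrb1c, the NK1.1 antigen, at 0.0146 and 0.221 TPM (q = 0.146, authors' deposited table). Klrb1a was at the floor in sham and at 0.338 TPM in stroke (q = 0.105, authors' deposited table).

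Lilrb4a led the inhibitory members. This receptor, also called gp49B, carries ITIMs and is found on macrophages and mast cells. The row with the identifier ENSMUSG00000112148 had a sham mean of 0.805 TPM and a stroke mean of 174 TPM, a 216-fold rise (q = 1.21e-18, authors' deposited table). Its neighbour Lilr4b, or gp49A, which lacks ITIMs, went from 0.118 to 52.2 TPM, 441-fold higher, with the smallest q of all members (q = 3.29e-25, authors' deposited table). The authors' deposited table gives the name Lilrb4a to a further identifier, ENSMUSG00000062593, at 0.102 and 32.0 TPM (q = 1.20e-18). GENCODE M21 calls that identifier Gm49339, and 95.2% of its 50-base stretches are also in Lilrb4a. It is therefore not an independent measurement, and for Lilrb4a and Lilr4b themselves 46.7% and 24.6% of stretches are shared with another gene.

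Inhibitory receptors for exposed lipids, crystals and sialic acid were also higher. Cd300lf and Cd300a, which bind phospholipids of dying cells, went from 1.19 to 25.9 TPM (q = 4.95e-14) and from 0.976 to 19.3 TPM (q = 1.81e-17, authors' deposited table). Clec12a, a receptor for uric acid crystals, rose 73.6-fold, from 0.229 to 16.9 TPM (q = 1.42e-11, authors' deposited table). Pilra rose from 0.517 to 10.1 TPM (q = 3.33e-11) and Clec4a2 from 0.435 to 2.95 TPM (q = 0.0184, authors' deposited table). Among the sialic acid receptors, Siglecf rose 13.3-fold to 3.17 TPM and Siglecg 14.5-fold to 0.305 TPM, while Siglece rose 3.10-fold from 1.73 to 5.37 TPM (authors' deposited table). Siglece was thus the Siglec with the highest sham mean among those listed and the one with the smallest fold. Siglech, a microglial member of the group, was not listed. Treml1, a platelet receptor, went from 0.291 to 1.24 TPM (q = 0.0266), and the low Klra2 and Klrb1b rose to 0.372 and 0.589 TPM (authors' deposited table). For Klrb1b 27.2% of the stretches are shared with another gene.

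Sirpa stood apart from the other inhibitory members. It is the receptor for the "do not eat me" signal Cd47 and is carried by neurons as well as by myeloid cells. Its sham mean of 68.7 TPM stood against 156 TPM after stroke, a ratio of 2.26, and the difference did not pass (q = 0.113, authors' deposited table). It held most of the inhibitory sum in sham, and the other 14 rows were between 0.0210 and 1.73 TPM there in the authors' deposited table.

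**Figure D2:**
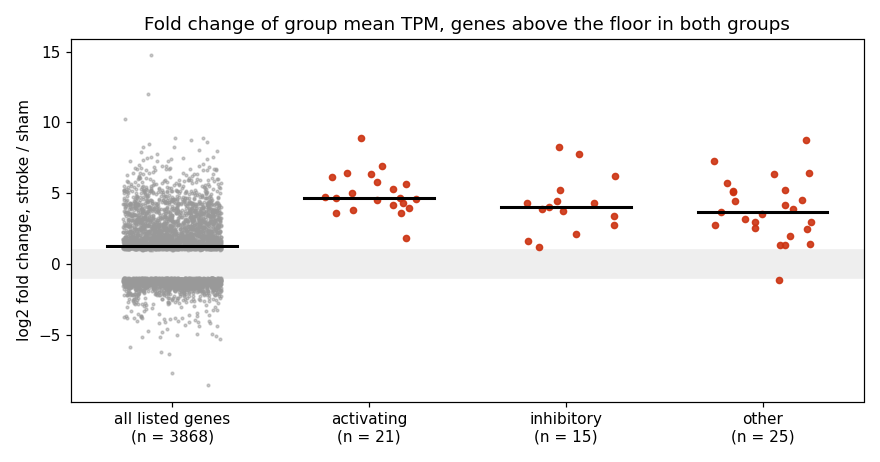
Log2 fold change of stroke over sham for all listed genes above the floor in both groups (grey) and for activating, inhibitory and other members (red; 21, 15 and 25 rows), with 1 point per gene and a black line at the median. The grey band between -1 and 1 holds no gene because the tables list none there, and the member medians of 4.68, 3.99 and 3.63 lie above the 1.27 of all listed genes.

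Among members with neither role, the Ms4a proteins, which pass through the membrane several times, had a summed mean of 4.65 TPM in sham and 153 after stroke (authors' deposited table). The authors' deposited table listed 10 of 21 RefSeq Ms4a names, 8 of which rose, beside 8.02% of all protein-coding names. Ms4a6d went from 1.46 to 49.7 TPM (q = 2.37e-16), Ms4a7, a macrophage gene, from 1.22 to 45.1 TPM (q = 9.52e-11) and Ms4a6c from 0.492 to 40.6 TPM (q = 4.58e-18, authors' deposited table). Ms4a6b reached 9.30 TPM and Ms4a4c 2.64 TPM, 12.4-fold and 155-fold higher (authors' deposited table). Ms4a14 rose to 1.68 TPM, Ms4a4a to 2.22 TPM and Ms4a4b to 1.20 TPM, while Ms4a4d at 0.465 TPM did not pass (q = 0.0845, authors' deposited table).

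All 5 Slamf names were listed and 4 rose, beside 8.02% of all protein-coding names. Slamf9 had means of 2.47 TPM in sham and 37.2 TPM in stroke (q = 1.81e-15) and Slamf7, a self-binding receptor, of 0.0613 and 3.19 TPM (q = 1.38e-13, authors' deposited table). Slamf6 rose 22.6-fold to 2.76 TPM and Slamf1 was at the floor in sham and at 0.182 TPM in stroke (q = 0.00875, authors' deposited table). Slamf8, at 0.700 and 1.80 TPM, was just outside the call (q = 0.0543, authors' deposited table). The members just inside it were Sirpb1a and Treml1, named above. Siglec1, the sialic acid receptor of activated macrophages, rose 35.1-fold from 0.165 to 5.80 TPM (q = 1.22e-19), and Treml2 21.3-fold to 7.72 TPM (q = 3.07e-18, authors' deposited table).

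The endocytic and endothelial members had folds under the median of 12.4 for members with neither role. Mrc2, which takes up collagen, went from 4.69 to 18.4 TPM (3.93-fold, q = 1.07e-07) and Mrc1, the mannose receptor of border macrophages, from 0.334 to 1.93 TPM (5.78-fold, q = 0.00162, authors' deposited table). Clec14a and Clec1a, both of endothelium, rose 2.69-fold and 7.64-fold to 2.22 and 0.524 TPM (authors' deposited table). Clec4a3 and Clec4a1 rose 6.56-fold and 5.51-fold to 5.64 and 2.21 TPM, and Clec10a, a galactose receptor, was at 1.33 and 3.35 TPM without passing (q = 0.0966, authors' deposited table). Klrd1, the partner chain of natural killer receptors, was at the floor in sham and at 1.10 TPM in stroke (q = 0.000195, authors' deposited table). Clec2i, a ligand of the receptor Klrb1f, rose 17.5-fold to 0.852 TPM, and Klrb1f itself was at the floor in sham and at 0.167 TPM in stroke (q = 1, authors' deposited table). Of 29 RefSeq Klr names 7 were listed and 3 rose, which is near the 8.02% of all protein-coding names that rose.

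Only Clec11a and Ms4a15 were listed lower after stroke, and neither passed. Clec11a, a growth factor for bone and blood cells, had means of 6.12 TPM in sham and 2.80 TPM in stroke (q = 0.142, authors' deposited table). Ms4a15 was at 0.259 TPM in sham and at the floor in stroke (q = 0.105, authors' deposited table).

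**Figure D3:**
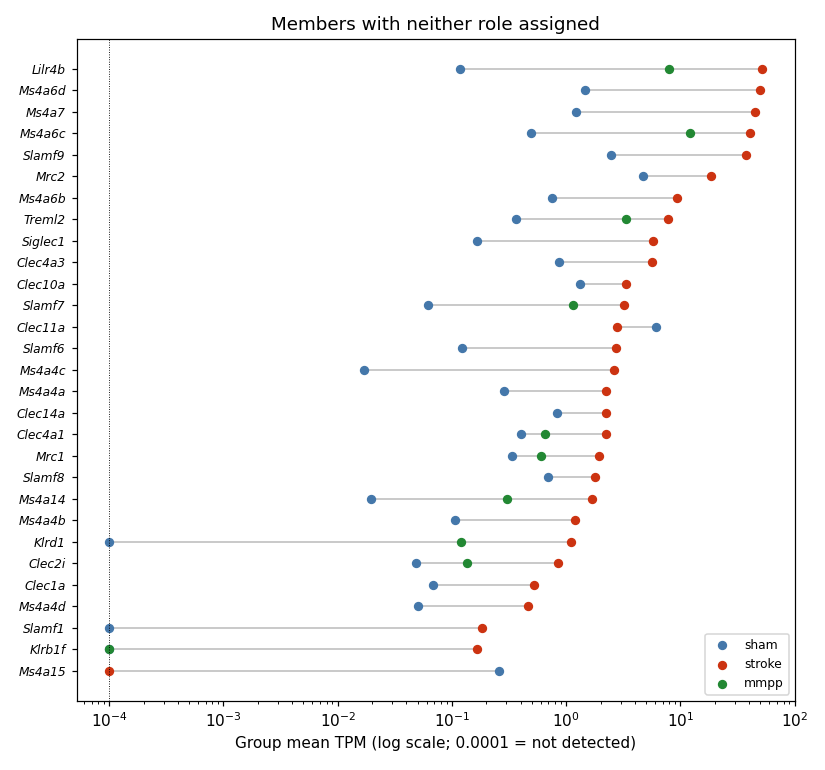
Group mean TPM (log axis) of the 29 members with neither role in sham (blue), stroke (red) and, where listed, mmpp (green), from the authors' deposited tables, ordered by the stroke mean. Clec11a and Ms4a15 are the rows with the stroke mean to the left of the sham mean, and the dotted line at 0.0001 marks means that were not detected.

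Transcripts of genes whose products carry the receptors' signals were higher among those listed, for both activating and inhibitory signals. Of a list of 22 adaptor and enzyme genes, 18 were listed in stroke against sham and all 18 rose, with a median log2 fold change of 3.73. Of all protein-coding names, 8.02% rose. The adaptor genes Tyrobp, Fcer1g and Hcst went from 102 to 1992, from 53.5 to 1543 and from 2.06 to 21.1 TPM (authors' deposited table). The kinase gene Syk rose from 2.68 to 32.3 TPM (q = 2.57e-21, authors' deposited table). On the inhibitory side, the phosphatase gene Ptpn6, whose product binds ITIMs, rose 19.2-fold from 5.71 to 109 TPM (q = 1.69e-25) and Inpp5d 12.7-fold from 4.96 to 62.9 TPM (q = 7.00e-28, authors' deposited table). Bcl10, Malt1, Ptpn11 and Dok3 were not listed.

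Beside 8.02% of all protein-coding names that rose, genes of known ligands were listed for 11 of 19 list members, and all 11 rose. They included Raet1d, which went from 0.0603 to 10.1 TPM (q = 5.34e-05), Raet1e and Ulbp1, all ligands of Klrk1 (authors' deposited table). Cd48, a ligand within the Slamf family, went from 1.32 to 38.2 TPM (q = 5.33e-10), and the MHC class I genes H2-K1 and H2-D1, seen by Pirb, rose 5.28-fold and 5.33-fold (authors' deposited table). Cd47, the ligand of Sirpa, was not listed, nor were the Pilra ligands Cd99, Npdc1 and Pianp.

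**Figure D4:**
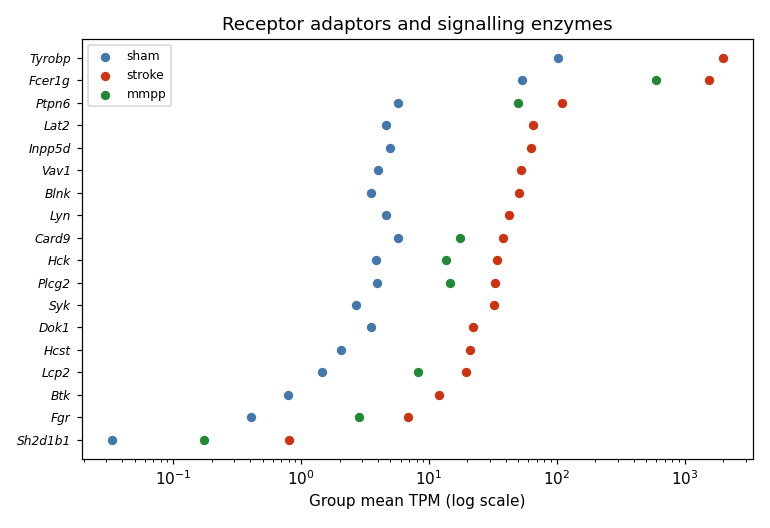
Group mean TPM (log axis) of the 18 listed adaptor and enzyme genes in sham (blue), stroke (red) and, for 8 genes, mmpp (green), from the authors' deposited tables. Every stroke mean is above the sham mean, Tyrobp and Fcer1g are the most abundant, and each mmpp mean shown lies between the other groups.

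Listed markers of cells that carry the receptors were mostly higher after stroke. Over all genes adjusted, 9.67% rose and 3.37% fell. Microglia markers had 7 of 8 genes listed, all 7 rose, and their summed mean was 219.8 TPM in sham and 2333 in stroke. Monocyte markers had 4 of 5, all of which rose, with sums of 4.08 and 14.5 TPM, and border macrophage markers 3 of 6 that rose and Lyve1 lower without passing, with sums of 11.9 and 60.5 TPM. Neutrophil markers had 4 of 6 listed higher, 3 of which rose (5.15 and 16.7 TPM), T and natural killer cell markers 5 of 8, 3 of which rose (0.844 and 5.46 TPM), and dendritic and B cells 1 of 5 each, Itgax and Cd79b, both of which rose (1.44 and 34.5 TPM, and 0.672 and 7.41 TPM). Ly6c2, Ly6g, Flt3, Xcr1, Ncr1 and Trac were not listed, and Cd3d was at the floor in sham. Thalamic neuron markers had 5 of 8 listed, all lower, of which 4 fell (978 and 448.8 TPM). Most of these sums was Calb2, at 792 and 386 TPM, which did not pass (q = 0.153, authors' deposited table). All 6 choroid plexus markers were lower, and 5 fell (4396 and 393 TPM, mostly Ttr at 4317 and 372 TPM). These sums come from the authors' deposited table and hold listed genes only. The part of these marker differences in the receptor values was not tested.

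Between mmpp and stroke the receptors were compared to ask which of them differed with the mmpp label. All 32 listed members were lower in mmpp and 0 higher, but only 1, Lilrb4a (ENSMUSG00000112148), had a q under 0.05. Over all genes adjusted in this comparison, 3.58% were listed lower, 1.24% were listed higher and 0.0306% were lower with a q under 0.05. The shares listed lower and higher count only genes with a q under 1, which 30 of the 32 members had. The 32 rows are thus listings at an unadjusted p under 0.05. They hold 31 of 127 RefSeq names, or 24.4%, beside 2.78% of all protein-coding names listed lower. The share was 12 of 25 activating rows, 10 of 15 inhibitory rows and 10 of 29 other rows. Every one of these rows was also listed in stroke against sham, so the shares depend on that choice. No matching share of other genes that rose was counted, and the roles are not compared. Above the floor, the median log2 fold change of the 30 listed members was -1.83, and that of all genes listed lower was -1.51. Both comparisons use the same stroke samples, so their directions are not independent.

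The Lilr and Pir group held the 3 members of smallest q, and most of its mmpp means were a small share of the stroke mean. Lilrb4a was at 18.0 TPM in mmpp, 9.66-fold below the stroke mean (q = 0.0344, authors' deposited table). Lilr4b was at 8.0 TPM (q = 0.166), Pirb at 2.77 TPM (q = 0.262), Pira2 at 0.232 TPM (q = 0.510) and Lilra6 at 0.0420 TPM (q = 0.596) in mmpp in the authors' deposited table. As a share of the stroke mean these were 10.4%, 15.3%, 20.5%, 15.9% and 10.8%, and outside the group Klrd1 was as low, at 10.9%, followed by Klra2. The Gm49339 identifier, also named Lilrb4a, was at 5.87 TPM (q = 0.263), and Lilra5 at 0.597 TPM (q = 0.574, 35.6% of stroke, authors' deposited table). All 6 symbols of this group that rose after stroke were therefore listed again here, and the mmpp mean of each was above its sham mean. Of all protein-coding names, 2.78% were listed lower in mmpp.

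Among lectins, Clec7a was at 34.0 TPM in mmpp (33.7% of stroke, q = 0.791), Clec12a at 4.47 (26.6%, q = 0.726), Clec4n at 2.89 (29.8%, q = 0.632), Clec5a at 2.59 (31.6%, q = 0.726) and Clec4d at 1.77 (26.8%, q = 0.541, authors' deposited table). Each of these 5 lectins lay between its sham and stroke means. Clec9a was at 0.119 TPM (q = 0.781), close to its sham mean of 0.106, and Clec4e at 0.0969 TPM (q = 0.797, authors' deposited table). Clec4a1 and Clec2i were at 0.656 and 0.136 TPM (q = 0.544 and 0.720, authors' deposited table). Further members listed lower were Cd300lf at 9.44 TPM (q = 0.726), Pilra at 4.52 (q = 0.726), Siglece at 2.39 (q = 0.524), Siglecg at 0.0708 (q = 0.664), Trem1 at 0.369 (q = 0.742), Treml2 at 3.31 (q = 0.769) and Sirpb1c at 0.559 (q = 0.664, authors' deposited table). Pilra and Siglece kept the largest shares of the stroke mean, 44.9% and 44.5%. The others were Ms4a6c at 12.1 TPM (q = 0.523), Ms4a14 at 0.306 (q = 0.550), Slamf7 at 1.14 (q = 0.651), Mrc1 at 0.605 (q = 0.650), Klrd1 at 0.120 (q = 0.514), Klrb1b at 0.191 (q = 0.769) and Klra2 at 0.0445 (q = 0.772, authors' deposited table). In mmpp, the authors' deposited table had Klrb1a and Klrb1f at the floor (q = 1).

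**Figure D5:**
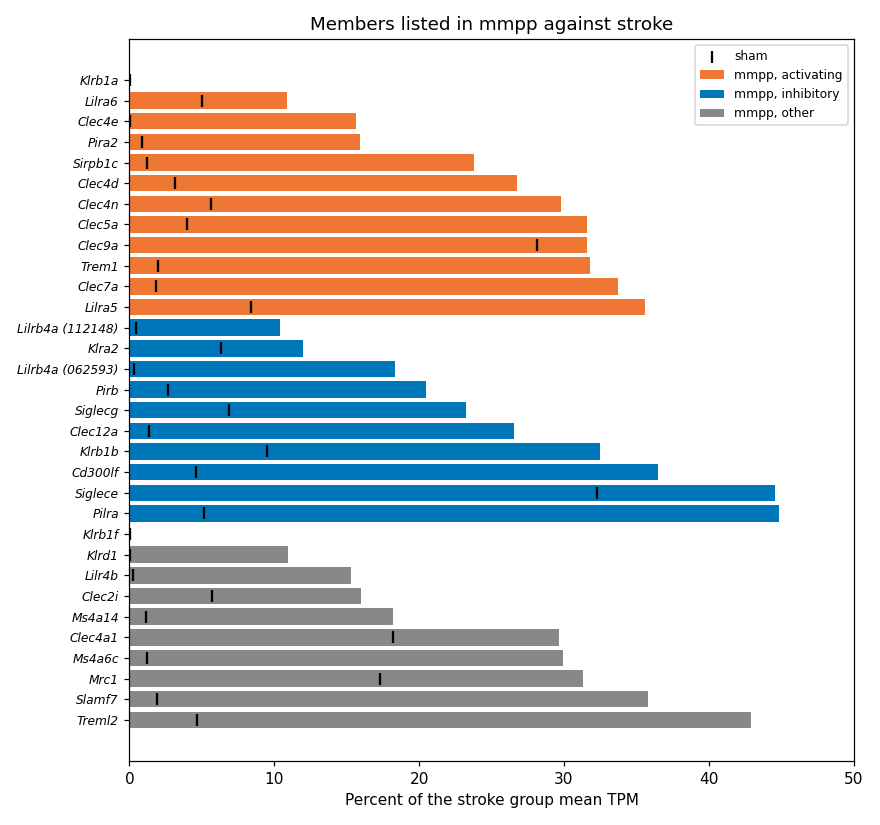
Mean TPM in mmpp as a percent of the stroke mean for the 32 members listed in mmpp against stroke, coloured by role, with a black tick for sham as a percent of the same stroke mean. Bars above the floor run from 10.4% for Lilrb4a to 44.9% for Pilra, and the sham tick lies inside each of these bars.

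For the 32 listed members the mmpp means can be set beside sham. Listing requires a mean at least 2-fold below stroke, so the shares of stroke and the sums are bounded by that filter, and the members not listed have no mmpp value and are not described by them. These groups were not tested against each other here, and the following values are a description. In 30 of 32 members the mmpp mean was above the sham mean, and the exceptions Klrb1a and Klrb1f were at the floor in both groups. Over the 28 members above the floor in all groups, the mmpp mean was 29.7% of the stroke mean at the median (10.4% to 44.9%). It was 8.26 times the sham mean at the median, from 1.12 times for Clec9a to 67.6 times for Lilr4b. Summed over the 32 members, the authors' deposited tables gave a sham sum of 10.1, a stroke sum of 524.5 and an mmpp sum of 117.5 TPM. The activating rows among them had sums of 3.24, 133.8 and 43.3 TPM and the inhibitory rows 5.04, 279 and 47.8 TPM. Of the 22 signalling genes, 8 were listed lower in mmpp and 0 higher, among them Fcer1g at 601 TPM (q = 0.726) and Ptpn6 at 49.4 TPM (q = 0.689, authors' deposited table). Of the 19 ligand genes 3 were listed lower, Anxa1, Raet1d and Fn1, with Raet1d at 3.0 TPM (q = 0.726, authors' deposited table). None of these signalling and ligand genes had a q under 0.05. Over all genes adjusted, 3.58% were listed lower and 1.24% higher.

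Some markers were also listed in mmpp against stroke, where 3.58% of all genes adjusted were listed lower and 1.24% higher. Listed lower were 2 of 8 microglia markers, Sall1 and Gpr34 (58.1 TPM summed in stroke and 21.9 in mmpp), 2 of 6 border macrophage markers, Cbr2 and F13a1, with Lyve1 listed higher (21.5 and 7.37 TPM), and 1 each of monocytes (Ccr2), neutrophils (Mmp8) and T and natural killer cells (Cd4). Thalamic neuron markers had 3 of 8 listed higher (35.1 and 94.6 TPM), and choroid plexus and dendritic cell markers had none listed. These sums are of the authors' deposited table, none of these markers had a q under 0.05, and their part in the receptor values was not tested.

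Many of the receptor genes lie in clusters. The rule used name stems and not positions, but neighbours that share a stem enter together, so the runs are not independent of it. In RefSeq (GRCm38.p6) gene order, 99 names that match the rule, Trem2 included, stand in 17 runs of direct protein-coding neighbours. Of all protein-coding names, 8.02% rose after stroke and 2.78% were listed lower in mmpp. In the run of 10 names from Cd300a to Cd300e 8 rose after stroke, and none was listed in mmpp against stroke. Cd300lf, which was listed there, lies outside that run. The run of 9 names from Clec4a1 to Clec4e had 6 that rose, 4 of which were listed lower in mmpp. Lilr4b and Lilrb4a are neighbours, and both were in both lists. The run of 19 names from Klre1 to Klra1, which holds natural killer receptors, had 2 listed names, 1 of which rose, a share near the 8.02% of all protein-coding names; runs were not tested against each other. The 3 names from Sirpb1a to Sirpb1c and the 3 from Pilra to Pilrb2 all rose. Neighbours that are near copies share reads, so a run is not a set of independent genes.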

How the data were processed

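TRIzol was used for RNA and a SMARTER mRNA kit for the libraries, per the labels' protocols. The submitters' processing notes name HTSeq 0.6.0, TopHat2 2.0.12, Bowtie2 2.2.3 and the build GRCm39 but not their roles. The program behind the tests, the strand setting and the treatment of reads matching several genes are not given in the sources used here. Per the file headers, the authors deposited, per gene, group mean TPM and the log2 fold change with its p-value and q-value. On the deposited values, the log2 fold change is the log2 ratio of the means (largest difference 5.4e-11) and every gene listed has p under 0.05 and differs by 1 or more on the log2 scale. Values per library and depth were not analysed here, and the foreseen refit was therefore replaced by the authors' test.

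The number of genes adjusted (20804 and 19616) was recovered from the p-to-q ratios as the number that makes the ranks whole (tolerance 0.001) and the method was tested on simulated data. The members and lists were chosen with earlier results of these data known. Rose and fell mean an authors' q-value under 0.05, and the 3 samples per group mean that p-values reflect only the variation among them, possibly technical. Named members were those in both tables, those lower after stroke or at the floor, the 5 most abundant and the 5 of smallest q per role, and those next to the call, 51 rows in all; others were named after their values were seen. Shared stretches were counted over 50-base words of GENCODE M21 transcripts. Promoters came from RefSeq (GRCm38.p6), 1 per symbol, and 58 of 68 symbols matched. Python 3.11.15, pandas 2.3.3 and Biopython 1.88 were used. The B cell markers in mmpp against stroke are not reported here.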

Additional observations from a re-analysis of the deposited data

How the results depend on the processing

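The stroke count of 58 members became 49 at a q under 0.01, 67 with all listed rows and 55 at a log2 difference of 2 or more. It was 37 without members whose sham or stroke mean was under 0.1 TPM, where activating members went from 21 to 10, and 43 without members that share over 20% of their sequence, a setting chosen after seeing the data. The 32 members listed lower in mmpp became 1 at a q under 0.05, 0 at a q under 0.01 by the authors' test and 15 at a log2 fold change of at least 2. The 32 members listed in both tables with opposite directions became 15 at that fold limit and 18 without means under 0.1 TPM in any group. The median log2 fold changes of activating and inhibitory members, 4.68 and 3.99, became 1.71 and 1.75 with 1 TPM added to each mean, which turned their order. With genes that are not listed set to the same total, log2 values moved by 0.17 in stroke against sham and by -0.07 in mmpp against stroke. Neither an added constant nor this scaling could turn the direction of a listed gene. Clec11a came under the 2-fold limit with the scaling. With 1 TPM added, 17 of 51 named members came under it in stroke against sham and 17 of 32 in mmpp against stroke. No paired analysis was possible because the tables hold group means, and leaving out replicates and a replicate block were not run for the same reason. Unknown depth limits all members with means near 0.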
